A study of Mus musculus with 12 samples.

Results

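The cytosolic ribosomal protein genes were examined in mouse embryonic stem cells with and without Phf6. Members were all genes whose symbol follows the pattern of the large-subunit proteins (Rpl, with Rplp0 to Rplp2) or the small-subunit proteins (Rps), with symbols of -ps pseudogene copies left out. This gave 82 of the 53379 genes in the tables, 51 named for the large and 31 for the small subunit. GENCODE listed 79 of them as protein-coding. Rpl6l and Rpl32l were listed as processed pseudogenes and Rps4l as a transcribed one. Symbols that do not follow the pattern (such as Rpsa, Rps3a1, Fau, Rpl36al, Rpl7l1, Rpl22l1 and the ribosome-bound Rack1) were no members and are described as a list of their own. All 82 members passed the filter on low counts and were tested.

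Cytosolic ribosomal proteins bind ribosomal RNA to form the large and small subunits of the ribosome, which needs most of them in equal numbers. Their mRNAs are among the most abundant of a growing cell and typically begin at a C followed by a run of pyrimidines, the terminal oligopyrimidine (TOP) motif, through which growth signals control their translation. Embryonic stem cells divide fast and carry a large load of these mRNAs.

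RNA came from ZHBTc4 cells, a 129/Ola embryonic stem cell line in which both native Pou5f1 alleles are disrupted and the pluripotency factor Oct4 is supplied by a transgene that doxycycline switches off. Wild type (WT) and Phf6 knockout (KO) cells were left untreated, exposed to doxycycline over 2 days (the labels of the samples give 0.5 µg/ml, the protocol 0.5 mg/ml), or given all-trans retinoic acid for 4 days (10 mM in the protocol text) in medium lacking leukemia inhibitory factor. Each of the 6 groups had 2 libraries. The labels do not say whether these were separate cultures or how many KO clones were used, so the p-values below reflect the spread of these libraries alone, which may be technical. RNA of the 4 retinoic acid libraries was purified with another kit than the rest, so kit and retinoic acid cannot be told apart. The labels name no group kept for 4 days in the same medium without retinoic acid. The medium and the time in culture can therefore not be told apart from retinoic acid either, and below "retinoic acid" stands for all of these together.

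Libraries held 15799517 to 21441996 counts. Phf6 was at 29.9 to 42.8 CPM (read counts scaled to a common library size) in the 6 WT and at 4.49 to 8.19 CPM in the 6 KO libraries. Pou5f1 was at 13.0 to 46.3 CPM in the 4 doxycycline libraries and at 973 to 1196 CPM in the other 8. The 10 pluripotency markers summed to 7592 to 8625 CPM untreated, 375.7 to 518.5 CPM with doxycycline and 1777 to 2948 CPM with retinoic acid. The 9 tested trophectoderm markers summed to 124.1 to 164.0 CPM untreated, 1590 to 2887 CPM with doxycycline and 399.0 to 487.4 CPM with retinoic acid. The 8 tested fibroblast markers, for the feeder cells used in early passages, summed to 27.6 to 60.7 CPM in the untreated and doxycycline libraries and to 114.6 to 116.9 CPM with retinoic acid. The part of these cell type changes in the results below was not tested, and in bulk RNA a change in the mix of cells and a change in RNA per cell cannot be told apart.

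RefSeq promoter windows (GRCm38.p6) were found for 60 members. The following stretches run from 40 bases before to 20 bases after the RefSeq start of transcription. They are shown for a pyrimidine run at or near the start, or the lack of one, in members that the results turn on. Capitals mark the longest run of at least 5 C or T that begins with C. The genes shown were picked with their values known.
Rps18 (chr17:33955646-33955705, minus strand): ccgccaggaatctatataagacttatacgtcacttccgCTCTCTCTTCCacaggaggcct
Rps6 (chr4:86857348-86857407, minus strand): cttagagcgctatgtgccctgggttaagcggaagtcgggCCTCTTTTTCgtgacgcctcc
Rpl15 (chr14:18270967-18271026, minus strand): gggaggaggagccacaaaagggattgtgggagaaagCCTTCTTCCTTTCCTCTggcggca
Rps10 (chr17:27635225-27635284, minus strand): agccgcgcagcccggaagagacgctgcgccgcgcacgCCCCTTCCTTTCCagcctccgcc
Rps27 (chr3:90213629-90213688, minus strand): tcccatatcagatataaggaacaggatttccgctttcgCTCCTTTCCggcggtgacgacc
Rpl31 (chr1:39367811-39367870, plus strand): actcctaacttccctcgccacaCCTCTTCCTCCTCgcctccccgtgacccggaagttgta
Rpl39l (chr16:10170188-10170247, plus strand): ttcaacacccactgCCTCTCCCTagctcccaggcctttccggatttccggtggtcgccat
Rplp0 (chr5:115559427-115559486, plus strand): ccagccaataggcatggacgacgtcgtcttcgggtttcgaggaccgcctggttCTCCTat
Rpl10l (chr12:66284382-66284441, minus strand): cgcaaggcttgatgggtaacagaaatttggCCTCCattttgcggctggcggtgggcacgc
Rpl9 (chr5:65391412-65391471, minus strand): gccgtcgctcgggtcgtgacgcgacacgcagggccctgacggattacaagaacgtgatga
Rps4x (chrX:102189372-102189431, minus strand): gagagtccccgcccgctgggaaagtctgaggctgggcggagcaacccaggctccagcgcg

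In Rps18, Rps6, Rpl15, Rps10 and Rps27 the run began 1 to 4 bases before the RefSeq start, with 9 to 17 letters. In Rpl31 and Rpl39l it began further upstream, at positions -18 and -26 relative to that start. The runs marked in Rpl10l and Rplp0 had 5 letters and began at positions -10 and 14. Over the sense strand from 50 bases before to 50 after the start, 52 of the 60 members (86.7%) held a C followed by at least 7 more C or T, against 32.0% of all 27025 genes with a window. The 8 without it were Rpl10l, Rpl23, Rpl24, Rplp0, Rps3, Rps4x, Rps13 and Rps28, while Rpl9 had its run outside the stretch shown. The letters CGGAAG, the core recognised by ETS-family factors, stood on either strand of 66.7% of the members' windows (250 bases before to 50 after the start) and of 18.8% of all. The other 3 motifs were rarer among members. AAGATGGC on either strand (8.3% against 3.2%) was in Rpl13a, Rpl22, Rpl35a, Rps15a and Rps27. TGACGTCA, which reads the same on both strands (8.3% against 2.0%), was in Rpl13, Rpl18, Rpl26, Rpl27a and Rps9. TATAAA on the sense strand in the 100 bases before the start (1.7% against 4.5%) was in Rpl39. A pyrimidine run can share letters with the reverse complement of CGGAAG, and all of these matches are descriptions of sequence, not of binding.

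Ribosomal protein mRNA made up 18.3% to 23.2% of all transcripts, and its share was lower after either treatment. In WT cells the members took 21.9% and 22.5% of the deposited TPM, an abundance corrected for transcript length, untreated, 19.0% and 19.7% with doxycycline, and 18.3% and 19.0% with retinoic acid. In KO cells they took 23.2% and 22.6% untreated, 21.3% and 19.9% with doxycycline, and 18.9% and 19.1% with retinoic acid. Each treated library was below each untreated library in both lines, while the KO libraries lay above the WT libraries untreated and with doxycycline and overlapped them with retinoic acid. The untreated gap was narrow, with the higher WT library at 22.54% and the lower KO library at 22.58%. As shares of counts, which favour long transcripts, the group means were 8.44% and 8.74% untreated (WT, KO), 6.85% and 7.5% with doxycycline, and 6.16% and 6.09% with retinoic acid. On that scale the untreated libraries of the 2 lines overlapped (WT 8.26% and 8.62%, KO 8.92% and 8.55%).

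**Figure D1:**
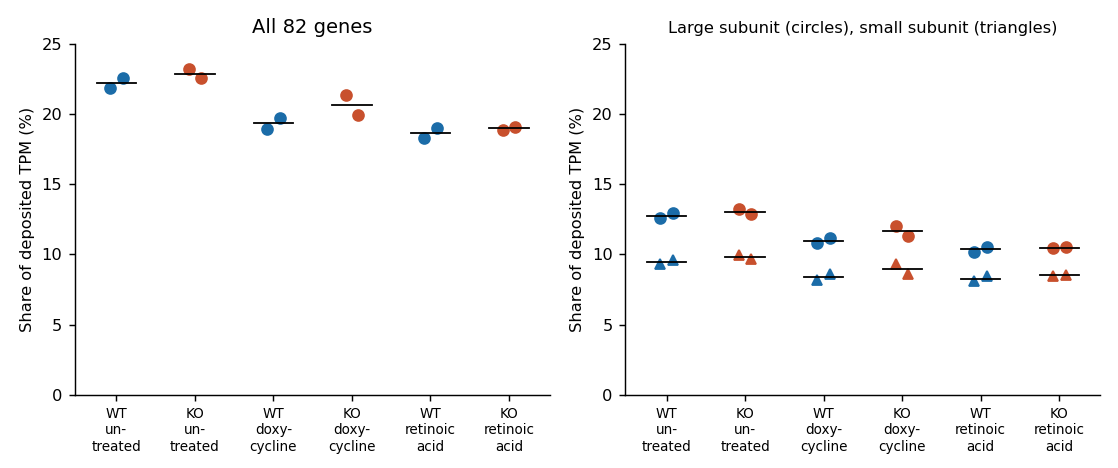
Share of the deposited TPM (%) taken by the 82 members (left) and by the large-subunit and small-subunit members apart (right), 1 point per library, blue for WT and red for KO, with a black line at the mean of 2 libraries. All 8 treated libraries lie between 18.3% and 21.3% on the left, below the 4 untreated ones at 21.9% to 23.2%.

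Single members differed far more in level than any condition changed them. Among the 75 members whose symbol does not end in l, 73 averaged at least 1000 TPM over the 12 libraries. In WT untreated cells these 75 ranged from 230.1 TPM for Rpl29 to 9785 TPM for Rplp1, a stalk protein that recruits elongation factors, with a median of 2567 TPM. Rpl29 was the lowest and Rplp1 the highest of the 75 in all 6 groups. Rps12, Rps18 and Rps24 of the small subunit and Rpl41, the smallest ribosomal protein, followed Rplp1 with mean levels of 6838, 4965, 4920 and 4869 TPM. The order of the 82 levels was close between groups (Spearman's rho 0.909 to 0.990 over genes, which are not independent replicates). The 7 members ending in l ranged from 1.21 TPM for Rpl3l to 915 TPM for Rps4l, which lay above Rpl29.

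Doxycycline, which removes Oct4, was followed by a broad, shallow loss of ribosomal protein mRNA. In WT cells 65 of the 82 members were called lower (edgeR quasi-likelihood test, adjusted p under 0.05) and none higher, where 31.3% of all genes were called lower and 31.8% higher (63.0% in all). The median log2 change of the members was -0.36 against 0.00 over all 17884 genes tested. Rps6, the small-subunit protein phosphorylated downstream of mTOR, stood at 1605 and 1663 CPM untreated and at 1222 and 1310 CPM with doxycycline. Its log2 change was -0.37 ± 0.05 (SE) with an adjusted p of 2.7e-07, and the libraries did not overlap. Rpl5 and Rpl11, which join 5S RNA in the large subunit and bind Mdm2 when unassembled, fell by 0.28 and 0.44 on the log2 scale.

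The same direction was seen in KO cells, where 62 members were called lower and none higher. Of all genes 31.2% were called lower and 31.2% higher (62.3% in all). The members' median was -0.28, and 58 members were called lower in both lines. The joint share over all genes was not counted and cannot exceed 31.2%. The large subunit had 45 of 51 (WT) and 42 of 51 (KO) members lower, the small subunit 20 of 31 in each line. Rps19, Rps15, Rps26 and Rpl41 were among the 13 members called in neither line, with log2 changes of -0.14 to 0.07. Apart from members ending in l, the deepest falls called in WT cells were those of Rpl36 (-0.69), Rpl37 (-0.55), Rps21 (-0.55), Rpl24 (-0.55) and Rps4x (-0.54). Rps21 was not called in 9 of 12 fits that each left out 1 library (adjusted p 0.0605 to 0.159; -0.32 without the first WT doxycycline library), nor Rpl37 without the second WT untreated or the first WT doxycycline library (adjusted p 0.0601 and 0.0847).

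The doxycycline libraries were less alike than the others for these genes. Rplp2 read 719.4 and 1123 CPM in the WT doxycycline libraries and 1179 and 881.7 CPM in the KO ones, against 1335 to 1459 CPM untreated, and it was not called (adjusted p 0.071 and 0.12). Rps12 read 1618 and 2269 CPM in WT and 2503 and 1877 CPM in KO cells. Over the members the chi-square between the 2 libraries of a group was 96.04 per gene in WT and 162.3 in KO doxycycline, against 4.13 to 32.66 in the other 4 groups. Most members have short transcripts, and the 2963 other genes under 1000 bases of effective length had medians of -0.15 and -0.11 (WT, KO), and the part of length was not tested further. On deposited TPM (limma on log2(TPM + 1)) 51 and 37 members were lower, with medians of -0.25 and -0.15 against 0.07 over all genes in each line.

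Retinoic acid was followed by a deeper and nearly uniform fall. In WT cells 81 of 82 members were called lower and none higher, against 32.9% of all genes lower and 41.0% higher (73.9% in all). In KO cells 80 were lower and 1 higher, against 34.6% and 40.9%. Member medians were -0.81 and -0.79, while the median over all genes was 0.12 and 0.10, so relative to all genes the members lay 0.93 and 0.89 lower. The stalk base Rplp0, which anchors Rplp1 and Rplp2 at the factor-binding site, read 2679 and 2771 CPM untreated and 1227 and 1263 CPM with retinoic acid in WT cells. In KO cells it went from 2752 and 2574 to 979.2 and 995.6 CPM, the lowest values of the 12 libraries.

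Rplp0 (-1.13 in WT, -1.43 in KO), Rplp1 (-1.11, -1.37) and the stalk-neighbouring Rpl12 (-1.08, -1.29) were among the deepest falls, together with Rpl14 (-1.18, -0.98) and Rpl37 (-1.10, -1.31), each with an adjusted p of 0.00045 or less. Rpl5, Rpl11 and Rps6 fell by 0.71, 0.78 and 0.67 in WT cells. The shallowest falls in WT cells were those of Rps27 (-0.25), Rps19 (-0.36), Rps20 (-0.38), Rps10 (-0.42) and Rps15 (-0.43), all of the small subunit. With retinoic acid 79 members were called lower in both lines, and 57 were lower in all 4 treatment comparisons. The same joint shares over all genes were not counted. They cannot exceed the smallest single shares, 32.9% for both lines with retinoic acid and 31.2% for all 4 comparisons. The plot of responses in WT against KO cells places nearly every abundant member in one compact cloud.

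**Figure D2:**
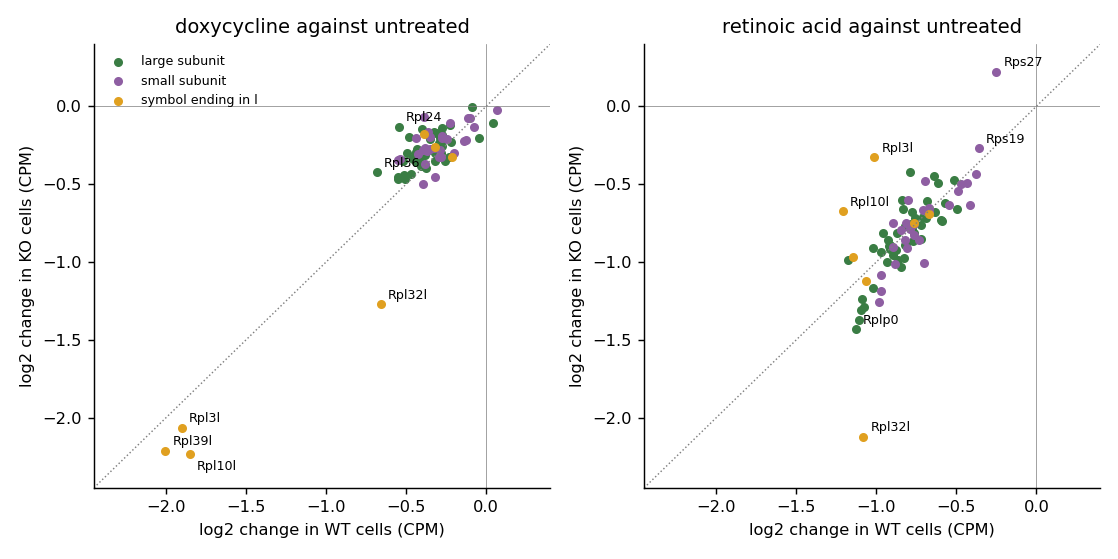
Log2 change (CPM) of each of the 82 members in WT (horizontal) and KO cells (vertical) with doxycycline (left) and retinoic acid (right), coloured by subunit, with the members ending in l in yellow and a dotted line where both responses are equal. With doxycycline Rpl10l, Rpl39l and Rpl3l lie near -2 in both lines, and with retinoic acid Rps27 alone lies above 0 in KO cells.

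The size of the retinoic acid fall depended on the scale. On deposited TPM the members' medians were -0.25 in WT and -0.24 in KO cells, with all genes at 0.43 and 0.42, so relative to all genes the members lay 0.68 and 0.66 lower. There 58 (WT) and 51 (KO) members were called lower, and Rps27, Rps10 and Rps15 were called higher in WT cells (0.32, 0.13 and 0.11). TMM factors were 1.15 to 1.16 in the retinoic acid libraries and 0.90 to 0.98 in the others, and the 2963 other short genes had medians of -0.30 and -0.33; the part of scaling, length and extraction kit was not tested apart. The doxycycline and retinoic acid comparisons of a line share their untreated libraries, so the deeper fall with retinoic acid in 78 of 82 members of each line on the CPM scale is given as a description. On the TPM scale the members' median in WT cells was -0.25 with either treatment, and Rpl9 changed by -0.37 with doxycycline and -0.10 with retinoic acid.

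Some members differed between KO and WT cells, and several of those that changed in every condition sat beside genes that changed the same way. Untreated, 6 members were called higher and 10 lower in KO cells, against 15.2% and 14.9% of all genes. With doxycycline 20 were higher and 7 lower, against 17.9% and 19.1%. With retinoic acid 6 were higher and 11 lower. There 18.8% of all genes were higher, 3581 of 17884 lower and 38.8% called in either direction. Member medians were 0.04, 0.12 and 0.03, against 0.02, 0.01 and -0.01 over all genes. The members' share called was thus near or below the background except among the higher calls with doxycycline. That count was 8 without the first WT doxycycline library, 9 without the first KO doxycycline library and 40 without the second KO doxycycline library. Untreated, 1 member was called higher without the first WT or the first KO untreated library, 11 and 16 without the first and second KO doxycycline library.

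**Figure D3:**
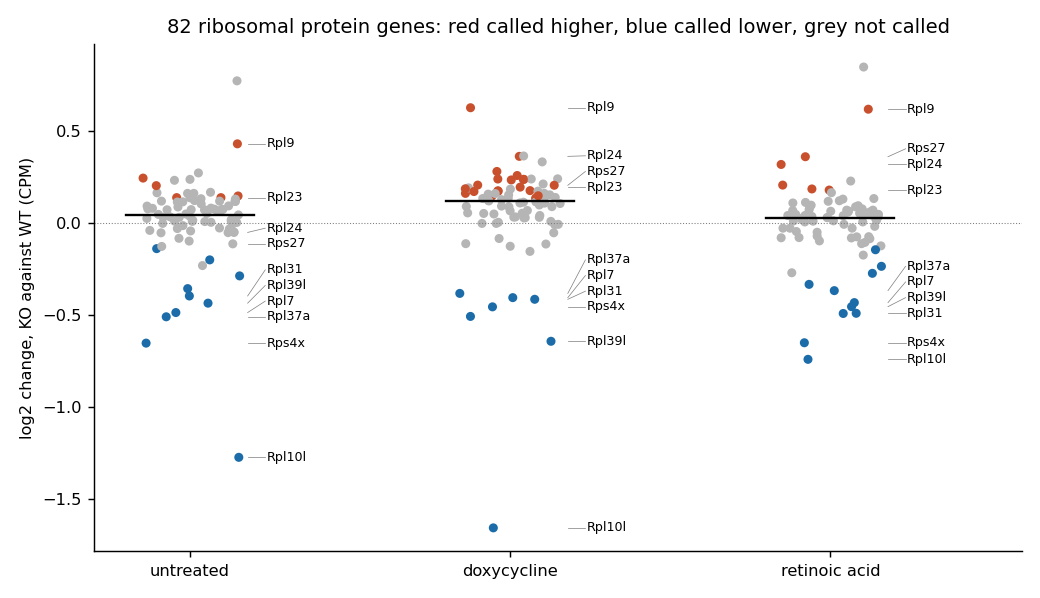
Log2 change (CPM) between KO and WT cells of each of the 82 members in 3 conditions, 1 point per gene, red for genes called higher, blue for genes called lower and grey for genes not called, with a black line at the median of the members. Rpl10l, Rps4x, Rpl7, Rpl31, Rpl37a and Rpl39l are blue in each condition, and Rpl9 and Rpl23 are red in each.

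Rps4x, the X-linked gene of a small-subunit protein, was at 2484 and 2620 CPM in WT and at 1673 and 1572 CPM in KO untreated cells. With doxycycline it was at 1798 and 1722 against 1359 and 1206 CPM, and with retinoic acid at 1437 and 1515 against 946.0 and 933.4 CPM. No KO library overlapped a WT library of its condition, and the log2 changes were -0.65 ± 0.06, -0.46 ± 0.06 and -0.65 ± 0.06 with adjusted p-values of 3.2e-10, 1.3e-07 and 1.9e-10. The other genes around Rps4x were lower as well. Of 23 expressed genes within 1 Mb, 17, 17 and 16 were called lower (untreated, doxycycline, retinoic acid), with medians of -0.70, -0.59 and -0.73. Lower medians reached to between 5 and 10 Mb on either side (-0.67 over 26 genes and -0.68 over 8 genes untreated), and beyond 10 Mb the 5 genes on each side had medians of 0.01 and -0.18. The X-linked members Rpl10, Rpl36a and Rpl39, elsewhere on the chromosome, were called lower in no condition, and Rpl10 was higher with doxycycline (0.28 ± 0.05, adjusted p 7.4e-05) and retinoic acid (0.18 ± 0.05, adjusted p 0.0056). The latter call was lost without the first WT or the second KO retinoic acid library (adjusted p 0.0718 and 0.0604).

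Rpl7, Rpl31 and Rpl37a of the large subunit are the 3 members on chromosome 1, and all were lower in each condition. Their log2 changes ran from -0.51 to -0.37, with adjusted p-values of 0.001 or less. The 1084 other tested genes of chromosome 1 had a median of -0.46 in each condition, with 559, 564 and 630 called lower. Rpl7 read 2069 and 2185 CPM in WT and 1559 and 1477 CPM in KO untreated cells, a fall near the chromosome's median.

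Rpl9 was the member with the largest rise in KO cells among those called. It read 941.8 and 1032 CPM in WT and 1324 and 1333 CPM in KO untreated cells, 679.3 and 721.9 against 1097 and 1065 CPM with doxycycline, and 607.7 and 661.2 against 960.7 and 985.7 CPM with retinoic acid. The KO libraries lay above the WT libraries throughout, with log2 changes of 0.43 ± 0.05, 0.62 ± 0.05 and 0.62 ± 0.05 (adjusted p 3e-07, 2e-10 and 2.5e-10). Its 17 expressed neighbours within 1 Mb on chromosome 5 had medians of 0.23, 0.31 and 0.43, with 8, 12 and 14 called higher, and beyond 10 Mb on either side the medians untreated were -0.01 and 0.01. Rpl23 of the large subunit was higher in KO cells by a small amount in each condition (0.14, 0.19 and 0.18). Untreated it read 847 and 910.7 CPM in WT and 968.6 and 964.3 CPM in KO cells. That untreated call was lost without the first WT or the first KO untreated library, while the call of Rpl9 was kept.

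**Figure D4:**
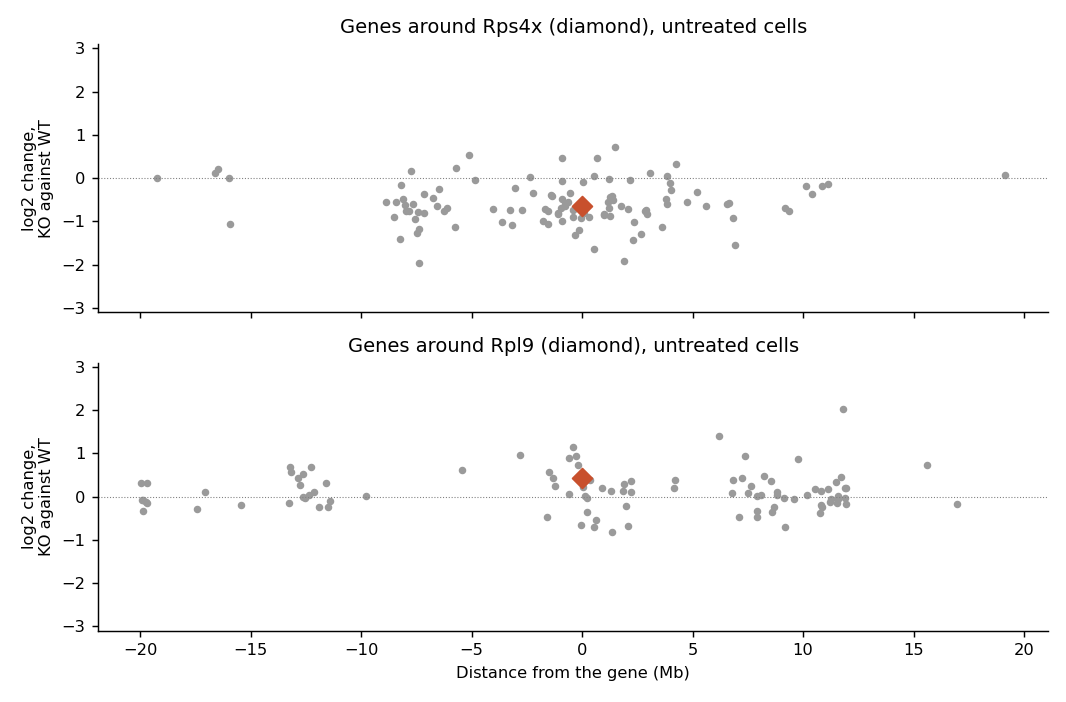
Log2 change between KO and WT untreated cells of expressed genes within 20 Mb of Rps4x (top) and Rpl9 (bottom), plotted by distance in Mb from that member, 1 grey point per gene, with the member as a red diamond. Genes within 10 Mb of Rps4x lie mostly below 0, around the member's own -0.65, and genes within 1 Mb of Rpl9 lie mostly above 0.

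Being called lower in all 3 conditions was shared by 7 members, against 5.89% of all genes. Called higher in all 3 were 2, against 4.02%, namely Rpl9 and, with the limit given above, Rpl23. Across the 78 members with at least 5 expressed neighbours, a member's change correlated with the median of its neighbours at Pearson's r of 0.51, 0.54 and 0.51 (Spearman's rho 0.24 to 0.26). Without Rpl7, Rpl31, Rpl37a, Rps4x and Rpl9, chosen after their values were seen, r was 0.06, 0.21 and 0.13 over 73 members. These correlations are over genes that share libraries and have no p-value. Rpl39l went against its 13 neighbours, whose medians were 0.19, 0.22 and 0.08, and Rpl10l had no expressed neighbour within 1 Mb.

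The members ending in l, copies or divergent paralogs of a core gene, held the strongest single changes. Rpl10l, an intronless autosomal copy of X-linked Rpl10 best known from the testis, read 149.3 and 157.0 CPM in WT and 62.1 and 64.6 CPM in KO untreated cells. With doxycycline it read 39.8 and 44.7 against 13.9 and 13.0 CPM, and with retinoic acid 66.4 and 66.2 against 37.5 and 41.9 CPM. KO libraries were below WT libraries in every condition, with log2 changes of -1.27 ± 0.06, -1.66 ± 0.08 and -0.74 ± 0.07 and adjusted p-values of 3.8e-15, 4.1e-15 and 4.1e-10. Rpl10 itself was not called lower in any of these comparisons.

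Rpl39l, the paralog of the tunnel protein Rpl39, read 28.4 and 28.9 CPM in WT and 21.1 and 21.2 CPM in KO untreated cells, a change of -0.44 ± 0.09 (adjusted p 0.00059). In KO cells it was also lower with doxycycline (-0.64 ± 0.14) and retinoic acid (-0.46 ± 0.10). Doxycycline cut 3 of these paralogs far more than any core member. Rpl10l changed by -1.85 and -2.23 (WT, KO), Rpl39l by -2.01 and -2.21, and Rpl3l, the striated-muscle form of Rpl3, by -1.90 and -2.06 at no more than 1.64 CPM. Rps27l, a p53 target and paralog of Rps27, and Rpl6l had changes of -0.39 and -0.32 in WT cells, and that of Rpl6l was not called without the second WT untreated or the first WT doxycycline library (adjusted p 0.144 and 0.138). Rps4l, listed as a pseudogene, had 290.4 to 682.8 CPM and fell with retinoic acid (-1.06 and -1.12, against -0.79 in each line for Rps4x), and reads shared between such copies were divided by a model in the authors' counting.

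Few members responded differently in the 2 lines, a smaller share than among all genes. For doxycycline 4 members had a larger (less negative) response in KO cells and 1 a smaller one, against 9.11% and 10.0% of all genes (19.2% in either direction). For retinoic acid the counts were 3 and 1, against 7.31% and 10.3% (17.7% in either direction). Rps27, a zinc-finger protein of the small subunit, was at 247.4 and 288.3 CPM in WT and 251.2 and 243.6 CPM in KO untreated cells, which overlap. With retinoic acid it was at 219.2 and 231.0 CPM in WT and at 288.1 and 289.1 CPM in KO cells, above every other library but 1 of the WT untreated ones. It was the 1 member that rose with retinoic acid in KO cells (0.22 ± 0.06, adjusted p 0.0037; 0.17 and 0.0874 without the second KO untreated library), and the difference of responses was 0.47 ± 0.09 (adjusted p 0.00073).

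**Figure D5:**
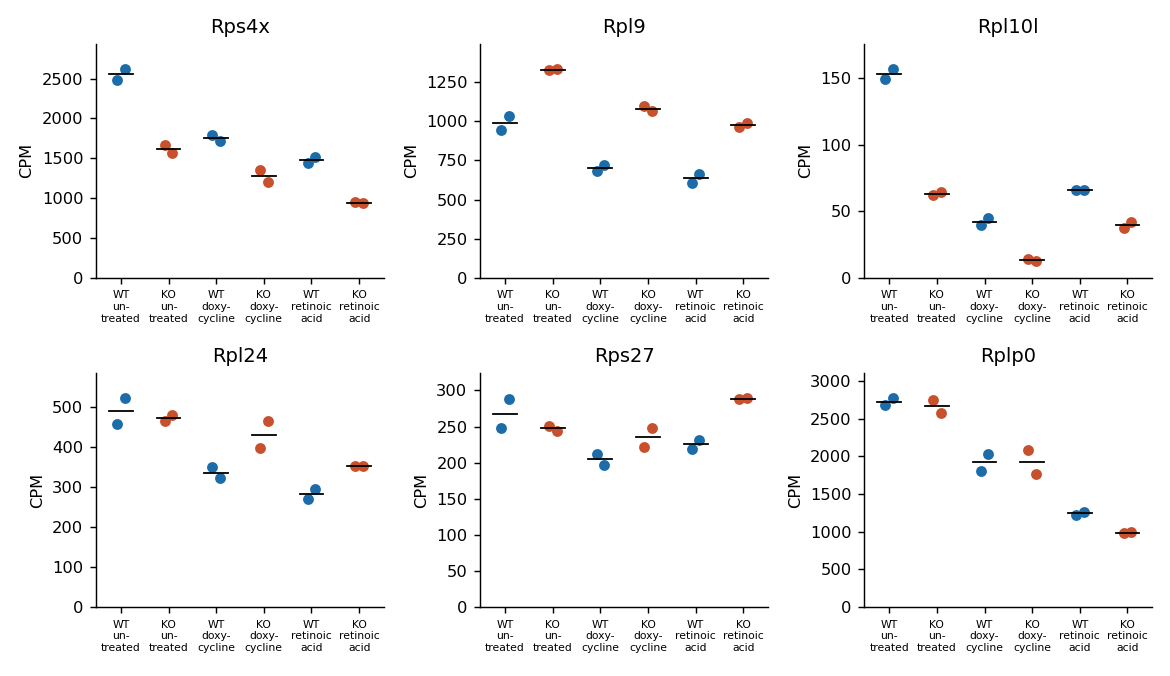
CPM of 6 members in each of the 12 libraries, blue for WT and red for KO, with a black line at the mean of the 2 libraries of a group. The KO points lie below the WT points in each condition for Rps4x and Rpl10l and above them for Rpl9, while Rpl24 and Rps27 overlap untreated and lie higher in KO cells after treatment.

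Rpl24, which bridges the 2 subunits, read 457.5 and 521.6 CPM in WT and 464.6 and 479.8 CPM in KO untreated cells. It fell to 349.7 and 321.7 CPM with doxycycline and to 270.8 and 295.6 CPM with retinoic acid in WT cells, and read 396.7 and 465.2 and then 353.6 and 352.0 CPM in KO cells. The differences of responses were 0.41 ± 0.11 (adjusted p 0.017) and 0.37 ± 0.11 (adjusted p 0.032). Rps7 and Rpl35 also fell less in KO cells with doxycycline, by differences of 0.23 ± 0.07 and 0.25 ± 0.09. Rplp0 fell more in KO cells with retinoic acid (difference -0.30 ± 0.10, adjusted p 0.036). Rpl10l fell further with doxycycline (-0.38 ± 0.11, adjusted p 0.011) and less far with retinoic acid (0.53 ± 0.09, adjusted p 7.5e-05). Of these 9 differences, only the 2 of Rps27 and Rpl10l with retinoic acid passed the threshold whichever single library was left out. For doxycycline the adjusted p rose to 0.0978 for Rpl10l and 0.0985 for Rpl24 without the second WT doxycycline library. Without the second WT untreated library it rose to 0.141 for Rps27, 0.15 for Rps7 and 0.266 for Rpl35. For retinoic acid it rose to 0.132 for Rpl24 without the first WT retinoic acid library and to 0.15 for Rplp0 without the first KO untreated library.

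Under retinoic acid, genes of ribosomal proteins outside the symbol pattern mostly fell, as the members did. With retinoic acid 7 of 8 were lower in each line, against 32.9% (WT) and 34.6% (KO) of all genes, and Rpl22l1 was not called (0.23 and 0.11). In KO cells Rpl22l1, the paralog that can replace Rpl22 in the large subunit, was higher in each condition (0.56 ± 0.10, 0.95 ± 0.10 and 0.44 ± 0.09). Rpl22 itself was lower untreated (-0.29 ± 0.06, adjusted p 0.00024) and with retinoic acid (-0.24 ± 0.06, adjusted p 0.0016) and was not called with doxycycline (-0.13 ± 0.06, adjusted p 0.08). The retinoic acid call was lost without the second WT retinoic acid library (-0.14, adjusted p 0.107) and without the first KO one (-0.18, adjusted p 0.0639). Rpl22 stood at 497.8 and 517.5 CPM in WT and 421.5 and 409.9 CPM in KO untreated cells, and Rpl22l1 at 47.3 ± 3.45 and 69.6 ± 5.08 CPM (mean ± SD, n = 2).

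Transcripts of the machinery that builds ribosomes fell along with those of the ribosomal proteins. Of 30 ribosome biogenesis factors, 27 and 29 were lower with doxycycline (WT, KO) and 30 of 30 in each line with retinoic acid, with medians of -0.52, -0.58, -1.37 and -1.54. Over all genes 31.3%, 31.2%, 32.9% and 34.6% were lower in these comparisons. Rrn3, which starts RNA polymerase I transcription, changed by -1.20 and -1.56 with doxycycline, and Rrp9 of the U3 snoRNP by -2.20 and -2.50 with retinoic acid. All 10 host genes of small nucleolar RNAs, such as Gas5 and Snhg12, were lower in the 4 treatment comparisons. Other genes with TOP mRNAs, mostly translation factors, were lower in 11 and 12 of 18 with doxycycline and in 17 and 18 of 18 with retinoic acid. The largest falls with retinoic acid were those of Npm1, a nucleolar chaperone and no translation factor (-1.43 and -1.64), and the elongation factor subunit Eef1d (-1.12 and -1.25). Mitochondrial ribosomal protein genes, which serve another ribosome, were lower in 45 of 78 (both lines) and in 71 and 67 of 78. Myc, an activator of ribosomal genes, was higher with doxycycline in WT cells (0.73), lower in KO cells (-0.38), and lower with retinoic acid in both (-2.38 and -3.88).

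In KO cells the biogenesis factors were lower in 13, 16 and 27 of 30 (untreated, doxycycline, retinoic acid). Of all 17884 genes tested, 2656 (14.9%), 3417 (19.1%) and 3581 were lower in these conditions. The 4 biogenesis factors on chromosome 1, Ncl, Nop58, Rrs1 and Wdr12, were lower in all 3 conditions. They led the list untreated, with log2 changes of -0.73 to -0.60. Of the 26 on other chromosomes, 9, 12 and 23 were lower and 2, 0 and 0 higher. Ribosomal protein chaperones were lower in 2, 5 and 5 of 8, led by Aamp, also on chromosome 1 (-0.43, -0.45 and -0.50). Genes of the p53 axis, which unassembled Rpl5 and Rpl11 can activate, were higher in 12, 10 and 1 of 16, against 15.2%, 17.9% and 18.8% of all genes, while Rpl5 was not called in any KO comparison and Rpl11 only with doxycycline (0.24 ± 0.07, adjusted p 0.011). That call was lost without the first WT doxycycline library (0.10, adjusted p 0.249) and without the first or second KO doxycycline library (adjusted p 0.174 and 0.0873).

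The responses were also set out by the sequence features at the start sites. Members with the pyrimidine run had a median of -0.79 with retinoic acid in WT cells, the same as the 8 without it (-0.79), and -0.77 against -0.72 in KO cells. With doxycycline the medians were -0.38 against -0.44 in WT and -0.29 against -0.27 in KO cells. For CGGAAG the medians with retinoic acid in WT cells were -0.79 with and -0.80 without it, and -0.76 against -0.77 in KO cells. The 3 rarer motifs, in 5, 5 and 1 members, had medians of -0.70, -0.72 and -0.83 there. The features and windows were chosen with the values known, and these medians are given with no test.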

How the data were processed

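RNA was sequenced from 12 libraries, 2 in each of 6 groups taken from the sample titles. The submitters' processing notes name STAR 2.5.3a, RSEM 1.3.0, DESeq2 1.18.1 and the mm10 build. Which annotation release and strand setting they used is not given in the sources used here. The authors deposited, per the file headers, an RSEM expected count for each gene, which divides shared reads by a model, a TPM and an effective length, a score in bases. Expected counts were rounded. Genes were filtered with edgeR's filterByExpr (minimum count 10, 17884 kept), scaled by TMM and fitted together by edgeR 4.0.16's quasi-likelihood test (robust, 1 term per group, 6 residual degrees of freedom, R 4.3.3). The 9 contrasts were adjusted by Benjamini-Hochberg over all genes tested, with a threshold of 0.05, and the typical coefficient of variation was 4.4%. Limma 3.58.1 on log2(TPM + 1) and DESeq2 1.42.0 were alternatives. CPM use rounded counts over TMM-scaled library sizes; SE is the log2 change over the square root of F. Coordinates of genes come from GENCODE M21 (82 members found).

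On simulated data with 200 changed genes (doxycycline, KO against WT, 17098 genes tested) 34.8%, 73.5%, 75.5% and 84.8% were recovered at 1.25-, 1.5-, 2- and 4-fold. These were 16, 36, 37 and 39 genes, beside which 15 of 16908 unchanged genes were called falsely. The simulation gave each gene the same spread in all groups. It therefore does not give the rate of false calls for members in the doxycycline libraries, which were less alike than the others. At 4-fold, 34 of 34 genes with a mean count of 50 or more were recovered, a bound set after the misses were seen.

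The members and gene lists were chosen with earlier results of these data known. Named were, per contrast, the 5 called members with the largest rise and fall at 5 CPM or more, members on chromosomes 1 and X, symbols ending in l with their parents, stalk, 5S and level extremes, Rps6 and Rpl22, and up to 4 genes per list; Rps15, Rps19, Rps20, Rps26, Rpl23 and genes beside members' sequences were named after their values were seen. Copies named -ps (277) took 39.7% of the combined counts for Rpl34, 29.4% for Rpl3 and 18.7% for Rpl15, so those members are uncertain. No pair of libraries of a group was as alike as sampling noise alone would make it (chi-square 1.90 to 6.28 per degree of freedom), and replicate numbers did not pair libraries across groups. Some genes are not reported here.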

Additional observations from a re-analysis of the deposited data

Results flagged for a closer look

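The response of 6 members differed between the WT and KO lines in a test of the difference itself (edgeR quasi-likelihood interaction, adjusted p under 0.05). For doxycycline these were Rpl10l (-0.38), Rpl24 (0.41), Rpl35 (0.25), Rps27 (0.32) and Rps7 (0.23), where a positive value means a less negative response in KO cells. For retinoic acid they were Rpl10l (0.53), Rpl24 (0.37), Rplp0 (-0.30) and Rps27 (0.47). Of all genes, 19.2% (doxycycline) and 17.7% (retinoic acid) were called in this test, a larger share than among the members. Untreated, the WT and KO libraries of Rpl24, Rpl35, Rplp0, Rps7 and Rps27 overlapped, and those of Rpl10l did not. Groups of 2 libraries are too small for a check of single outlying libraries.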

How the results depend on the processing

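Of 209 changes of named members called, 132 were called with the same sign under all settings tried, at most 23 each. On log2(TPM + 1) with limma, 9 changed sign: Rpl13a (doxycycline in KO 0.012, retinoic acid in KO 0.044 and in WT 0.035), Rpl23a (retinoic acid in WT 0.046), Rpl24 (retinoic acid in KO 0.15), Rpl35 (doxycycline in KO 0.011), Rpl9 (retinoic acid in KO 0.12), Rps10 and Rps27 (retinoic acid in WT 0.13 and 0.32). No other setting changed a sign among these. The cause of these changes was not tested.
Counts of members that moved by more than 1.5 times were as follows. For KO against WT untreated, members higher were 3 with effective-length offsets, 3 without chromosome 1 genes, 16 with only its groups and 11 with limma on TPM. For KO against WT with doxycycline, members higher were 38 with upper-quartile factors and 11 with only its groups, and members lower 4 without chromosome 1 genes, which leaves out 3 members. For KO against WT with retinoic acid, members higher were 13 with only its groups and 14 with limma. Limma also gave 1 member higher with doxycycline in WT (0 by edgeR) and 37 lower in KO, and with retinoic acid 3 higher in WT and 51 lower in KO. For the difference in the doxycycline response, members higher were 12 with upper-quartile factors, 2 with effective-length offsets and 1 with limma, and members lower 0 with offsets and 0 with limma. For that in retinoic acid, members higher were 7 with DESeq2 size factors, 7 with the DESeq2 test, 9 with only its groups and 1 with limma; members lower were 0 with those size factors, 0 with offsets, 4 with no filter and 9 with only its groups.
Leaving out 1 library at a time, the lone remaining library of a group was assumed to vary like the others. KO against WT untreated then gave 1 to 16 members higher, with doxycycline 8 to 40 higher and 7 to 13 lower, and with retinoic acid 3 to 8 higher. Retinoic acid in KO gave 0 or 1 higher, the 0 without the second KO untreated library. The difference of responses gave 0 to 12 higher and 0 to 5 lower with doxycycline, and 2 to 7 higher and 0 to 6 lower with retinoic acid. With the replicate block, members lower in the difference of retinoic acid responses were 0; the block moved no other count of calls by more than 1.5 times, and replicate numbers showed no pairing (correlations -0.112 to 0.076). As shares of counts in place of TPM, group means were 8.44% (WT) and 8.74% (KO) untreated, 6.85% and 7.5% with doxycycline and 6.16% and 6.09% with retinoic acid.
Depth limited Rpl3l and Rpl32l, at under 2 CPM.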
